A study of Mus musculus with 6 samples.

Results

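The 8 genes Tcp1, Cct2, Cct3, Cct4, Cct5, Cct6a, Cct7 and Cct8 encode the subunits of the cytosolic chaperonin TRiC, also called CCT. They were found by gene symbol among the 27179 Entrez identifiers of the deposited count table, and all 8 passed the filter on low counts that left 14199 genes for testing. The study sequenced oligo(dT)-selected RNA from mouse embryonic stem cells of the ES-E14TG2a background, grown on gelatin in a 2i medium with CHIR99021, PD0325901 and leukemia inhibitory factor. The 3 R783H libraries came from cells with FLAG-tagged Trim71 that carries the R783H amino-acid change, which the study links to hydrocephalus. The 3 WT libraries came from cells with FLAG-tagged Trim71 without that change, so the tag was common to both groups. The labels give letters A, B and C to the libraries but do not say whether these were clones, cultures or library preparations, so p-values measure the spread between these libraries, which may be technical. A clone difference unrelated to the residue change and an effect of that change cannot be told apart in this design.

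TRiC is a barrel of a pair of stacked rings, each built from 1 copy of all 8 subunits, that closes over unfolded proteins and uses ATP to drive their folding. Actin and tubulin depend on it, as do many proteins with WD40 repeats. Prefoldin and phosducin-like proteins deliver or help to release its clients. The subunits are paralogs that arose from a common ancestor, and a ring cannot be completed when one of them is missing. In the ring, Tcp1, Cct2, Cct4 and Cct5 form the side that binds ATP tightly, and Cct3, Cct6a, Cct8 and Cct7 form the side that binds it weakly. By RefSeq on GRCm38.p6, the build also called mm10 that the submitters' processing notes name, the genes lie on 8 chromosomes: Tcp1 at chr17:12916329-12925067, Cct3 at chr3:88297135-88321766, Cct4 at chr11:22990593-23003336, Cct6a at chr5:129787356-129846443 and Cct7 at chr6:85451505-85468477 on the plus strand, and Cct2 at chr10:117050997-117063852, Cct5 at chr15:31590800-31601846 and Cct8 at chr16:87483325-87495869 on the minus strand.

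Total counts ran from 27807385 to 29079670 in the R783H libraries and from 20894277 to 25174121 in the WT libraries, so each R783H library was deeper. The 8 genes together took 145313 to 173378 counts of a library, and the lowest value of any of them in any library was 13250 counts. Values are given as CPM, counts divided by the library total after scaling of the libraries with TMM factors. R783H B stood apart from R783H A and C for these genes: it was the highest R783H library for 8 of 8. Without it, calls lower were 11 for actins and tubulins, 13 for WD40 and other clients, 19 for cytosolic heat shock genes and 2 for tubulin cofactors. With it they were 10, 11, 18 and 1. Over all the runs with a library left out, they ran from 9 to 11, 9 to 13, 17 to 19 and 1 to 2, in that order. Trim71 mRNA, which carries the changed residue, stood at 143.7 ± 12.8 CPM in R783H against 140.5 ± 16.4 CPM in WT (SD, n = 3 each), and was not called (log2 fold change 0.03, SE 0.08), but the length and GC offset turned the direction and called it lower (-0.27, adjusted p 0.00104). A count of its mRNA cannot check a residue change. The pluripotency markers Pou5f1, Sox2, Nanog, Zfp42, Esrrb, Klf4, Tfcp2l1 and Tdgf1 summed to 6217 to 6299 CPM in R783H against 6548 to 6643 CPM in WT, with 3 of 8 called lower and 1 higher. Fibroblast markers summed to 1.97 to 2.86 CPM in R783H against 3.14 to 3.66 CPM in WT, with 1 of 3 tested genes called lower and Twist2 at 0 in every library. Endoderm markers summed to 8.74 to 9.62 against 3.996 to 5.89 CPM, with 2 of 4 tested genes called higher. Among these calls, Thy1 (lower) and Sox17 (higher) passed the low-count filter through the group where they were higher. Trophoblast markers summed to 32.1 to 37.3 CPM in R783H against 50.6 to 54.9 CPM in WT, mostly Eomes, with 2 of 2 tested genes called lower, and Elf5 was at 0 in the R783H libraries. Neural markers summed to 62.3 to 69.3 CPM and 93.3 to 97.6 CPM, mostly Tubb3, with 1 of 3 tested genes called lower and 2 higher. For comparison, 30.9% of all tested genes were called lower and 33.5% higher. The part of these marker differences in the Cct values was not tested.

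Sequence next to the start sites is shown because the 8 mRNAs moved in the same direction by unequal amounts. The RefSeq promoter table of GRCm38.p6 held 7 of the 8 genes, and Cct4 was the other. The 250 bases before the start were searched on both strands for 7 motifs. CACGTG is the E-box bound by Myc and Max, CCGGAAGT an ETS motif, GAANNTTC and TTCNNGAA paired heat shock elements, CCAAT the NF-Y box and GGGCGG a GC box; the palindromic NRF1 motif was the last. Matches are in capitals in the lines that follow, and a box on the other strand reads as its reverse complement, ATTGG for CCAAT and CCGCCC for GGGCGG. The Cct3 line (chr3:88297000-88297134, plus strand) and the Cct6a line (30 bases, chr5:129787297-129787326, plus strand) belong to the largest decreases. The Cct2 line (chr10:117063853-117064102, minus strand) belongs to the smallest decrease, and the Cct5 line (chr15:31601847-31602096, minus strand) holds the only paired heat shock element found.

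Cct3: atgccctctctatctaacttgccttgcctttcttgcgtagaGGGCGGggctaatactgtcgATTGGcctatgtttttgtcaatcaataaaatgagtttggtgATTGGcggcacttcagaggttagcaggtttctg
Cct6a: CCAATcagcGGGCGGcaggagggtcgccac
Cct2: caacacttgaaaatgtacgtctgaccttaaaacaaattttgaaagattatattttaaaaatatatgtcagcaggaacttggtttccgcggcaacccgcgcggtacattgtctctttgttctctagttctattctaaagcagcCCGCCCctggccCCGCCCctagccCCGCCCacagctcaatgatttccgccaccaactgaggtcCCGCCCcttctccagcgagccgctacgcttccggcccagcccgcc
Cct5: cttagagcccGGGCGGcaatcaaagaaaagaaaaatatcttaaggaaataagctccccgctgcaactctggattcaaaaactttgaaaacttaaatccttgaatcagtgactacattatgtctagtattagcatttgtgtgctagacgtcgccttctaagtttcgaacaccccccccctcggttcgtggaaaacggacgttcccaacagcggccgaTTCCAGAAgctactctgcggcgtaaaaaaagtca

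The windows are upstream of the RefSeq start by position only. All 250 bases of the Tcp1 window lie in an opposite-strand exon of Mrpl18, and all 250 of the Cct6a window lie both in an opposite-strand exon of Psph and in a same-strand exon, which is why only 30 bases of Cct6a are printed. In the Cct3, Cct7 and Cct8 windows 115, 29 and 47 bases lie in opposite-strand exons. All 7 windows held a GC box, which 32.7% of 32851 promoters of that length in the table also held. The Cct windows had a GC content of 45.2% to 66.4%, and the promoters were not matched to them in GC content or expression. A CCAAT box was found in 4 of 7 (Tcp1, Cct3, Cct6a and Cct7), against 33.8% of all promoters. Cct6a carried a pair of CCAAT boxes, starting 59 and 29 bases before the start site, of which the printed stretch holds the first, and Cct3 a pair starting 74 and 33 bases before it, on the other strand. Cct7 held the most CCAAT boxes, 3, and Tcp1 held 1, whereas Cct2, Cct5 and Cct8 held 0. Cct2 held 4 GC boxes, the first starting 108 bases before the start. Cct8 alone held the ETS motif, 37 bases before its start (2.88% of all promoters), and Cct5 alone held TTCNNGAA, 34 bases before its start (7.17%). CACGTG, GAANNTTC and the NRF1 motif were found in 0 of 7 windows, against 6.02%, 6.69% and 0.782% of all promoters. These matches and absences describe letters in the window and not binding.

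All 8 subunit mRNAs fell in R783H cells, by 0.18 to 0.69 on the log2 scale. The decreases were largest for Cct6a and Cct3, at 62.1% and 65.2% of the WT mean, and smallest for Cct2 and Cct4, at 88.2% and 86.2%. Summed over the 8 genes, R783H libraries stood at 5471 ± 289.5 CPM and WT libraries at 7071 ± 122.7 CPM (SD, n = 3 each), so the R783H mean was 77.4% of the WT mean, or 75.0% without R783H B. In bulk RNA, a lower value in every cell and a change in the mix of cells cannot be told apart. Of all tested genes, 30.9% were called lower and 33.5% higher, 64.5% in either direction, at a Benjamini-Hochberg adjusted p under 0.05 from the quasi-likelihood test of edgeR. Among the 182 tested genes at least as abundant as the lowest Cct gene, these 8 included, 57.7% were called lower and 23.1% higher. Of 1879 tested genes with transcripts in the length range of the Cct genes (1853 to 2484 nt), 40.3% were called lower and 25.0% higher. That set also includes the 8 Cct genes. The median log2 fold change was -0.33 over the 8 Cct genes, 0.03 over all tested genes, -0.23 over the abundant genes and -0.08 over the genes of like length.

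**Figure D1:**
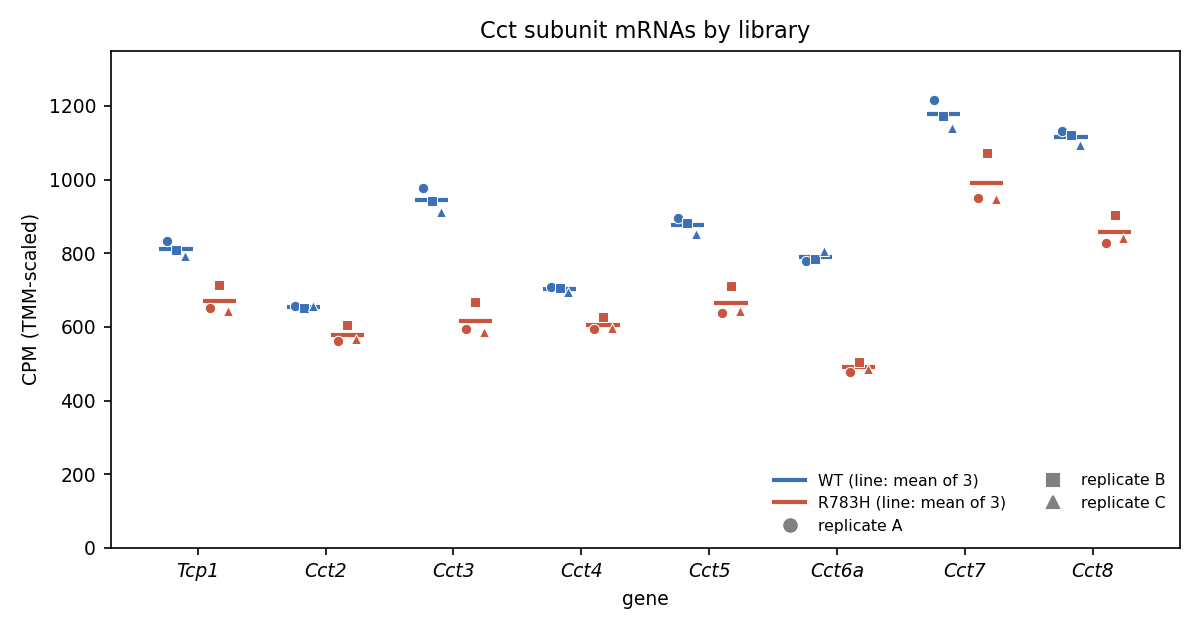
CPM of each Cct gene in the 6 libraries, with WT in blue and R783H in red; symbols give replicates A, B and C and lines the mean of 3 libraries. Every red point lies below every blue point of the same gene, and R783H B is the highest red point for 8 of 8 genes.

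On the side of the ring that binds ATP weakly, Cct6a, the zeta subunit, stood at 479, 506 and 486 CPM in R783H A, B and C, and at 778, 785 and 806 CPM in WT A, B and C. Its groups lay far apart, with a gap several times the range within either group. The log2 fold change was -0.69 (SE 0.04, adjusted p 1.95e-07 by edgeR's quasi-likelihood test). Cct3, the gamma subunit, which neighbours Cct6a in the ring, stood at 594, 667 and 586 CPM in R783H and at 977, 943 and 911 CPM in WT. Here R783H B was higher than A and C yet well under the lowest WT library. The log2 fold change was -0.62 (SE 0.05, adjusted p 2.58e-06 by edgeR's quasi-likelihood test). Cct8, the theta subunit, stood at 828, 904 and 842 CPM in R783H and at 1131, 1120 and 1093 CPM in WT, without overlap. It fell by 0.38 on the log2 scale (SE 0.04, adjusted p 2.22e-05). Cct7, the eta subunit, with the highest CPM of the 8 before division by length, stood at 950, 1071 and 948 CPM in R783H and at 1216, 1173 and 1141 CPM in WT. R783H B lay nearest to the WT range. The log2 fold change was -0.25 (SE 0.05, adjusted p 0.00165 by edgeR's quasi-likelihood test), and -0.33 without R783H B.

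On the side that binds ATP tightly, Cct5, the epsilon subunit, stood at 639, 712 and 644 CPM in R783H and at 896, 882 and 853 CPM in WT. This was the largest decrease of that side, with a log2 fold change of -0.40 (SE 0.05, adjusted p 3.25e-05 by edgeR's quasi-likelihood test). Tcp1, the alpha subunit that gave the complex its older name, stood at 652, 714 and 645 CPM in R783H and at 832, 810 and 793 CPM in WT. It fell by 0.28 on the log2 scale (SE 0.05, adjusted p 3.97e-04). Both genes had R783H B above A and C, and neither had overlapping groups. Cct4, the delta subunit, stood at 593, 627 and 596 CPM in R783H and at 708, 705 and 695 CPM in WT. Its log2 fold change was -0.21 (SE 0.04, adjusted p 6.70e-04 by edgeR's quasi-likelihood test), and -0.13 with scaling by library size alone (adjusted p 0.00839). Cct2, the beta subunit, stood at 562, 605 and 566 CPM in R783H and at 656, 651 and 657 CPM in WT. The log2 fold change was -0.18 (SE 0.04, adjusted p 0.00288 by edgeR's quasi-likelihood test), the smallest of the 8, and scaling by library size alone moved it to -0.10 (adjusted p 0.0422).

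Every R783H library lay below every WT library for 8 of 8 genes. Over all tested genes that pattern held for 33.1%, and ranges were apart in one direction or the other for 68.1%. Each gene was called lower under all 15 alternative settings, and its largest adjusted p over them ran from 7.18e-06 for Cct6a to 0.0422 for Cct2. Without R783H B the 8 log2 fold changes ran from -0.24 for Cct2 to -0.73 for Cct6a, with a median of -0.39. Ranked among all tested genes by log2 fold change, 7.39% stood below Cct6a and 9.32% below Cct3, whereas 33.3% stood below Cct2.

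**Figure D2:**
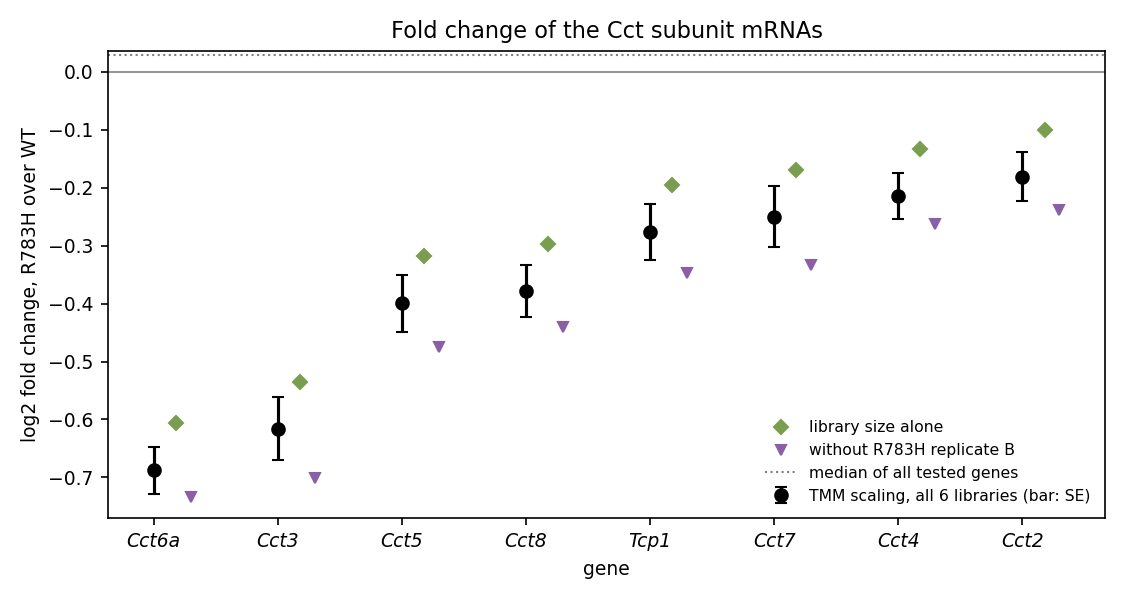
Log2 fold change of R783H over WT for each Cct gene (black points, bars are the SE), with the values for scaling by library size alone (green) and without R783H B (purple); the dotted line is the median of all tested genes. All values are below 0, and Cct6a and Cct3 lie lowest under each setting.

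The make-up of the Cct mRNA pool differed between the groups. The share of each gene in the summed Cct counts of a library does not depend on how libraries are scaled. Cct6a made up 9.04%, 8.71% and 9.15% of the pool in R783H A, B and C and 10.8%, 11.1% and 11.6% in WT. Cct3 made up 11.2%, 11.5% and 11.02% in R783H and 13.6%, 13.3% and 13.1% in WT. These shares differed, as R783H minus WT, by -2.20 and -2.10 percentage points on average, and all 3 R783H libraries lay below all 3 WT libraries. Cct7 went in share from 16.6% ± 0.246 to 18.1% ± 0.323 (SD, n = 3), Cct2 from 9.26% ± 0.174 to 10.6% ± 0.128, Cct4 from 9.93% ± 0.0866 to 11.1% ± 0.241 and Tcp1 from 11.5% ± 0.0854 to 12.2% ± 0.0967, each without overlap between the groups. Cct5 moved little, from 12.4% to 12.2%, still without overlap, and Cct8 overlapped at 15.8% and 15.7%. The exact two-sided permutation test gave p = 0.10 for 7 of the 8 shares, the smallest value that 3 against 3 libraries allow, and p = 0.5 for Cct8; no share could have passed 0.05. Without R783H B the differences were -2.07 points for Cct6a, -2.22 for Cct3, 1.25 for Cct7 and -0.028 for Cct8, and none of the 8 changed sign. Shares within a pool sum to 100%, so a lower share of some genes raises the others.

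**Figure D3:**
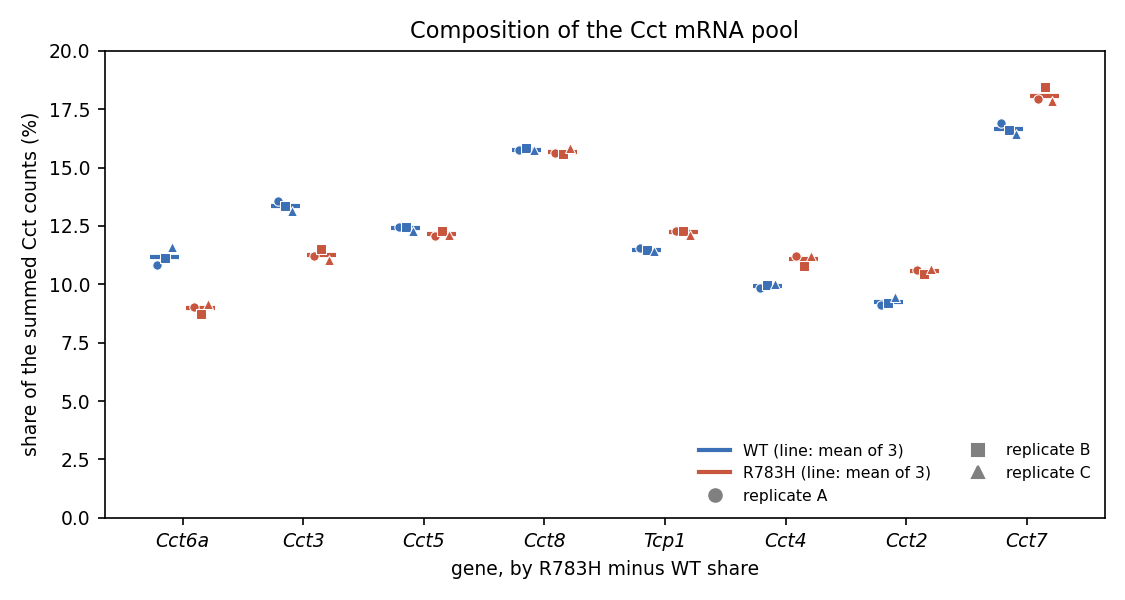
Share of each Cct gene in the summed Cct counts of a library (%), with WT in blue, R783H in red, symbols for replicates and lines for means; genes are ordered by the R783H minus WT difference. The difference is -2.20 points for Cct6a, -2.10 for Cct3 and 1.44 for Cct7, and Cct8 overlaps.

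Levels of different genes were compared as CPM per kilobase of the longest transcript in GENCODE M21's basic set. In WT, Cct7 (482 ± 15.5), Cct3 (477 ± 16.5), Cct5 (473 ± 11.7) and Cct8 (466 ± 8.29) formed an upper group in which neighbours overlapped. Cct2 (334 ± 1.51), Tcp1 (332 ± 8.19) and Cct6a (322 ± 5.88) formed a middle group, again with overlap between neighbours, and Cct4 was lowest at 283 ± 2.70 CPM per kilobase (SD, n = 3). In R783H the order was Cct7 (406 ± 28.8), Cct5 (359 ± 22.1), Cct8 (358 ± 16.98), Cct3 (311 ± 22.7), Cct2 (295 ± 12.05), Tcp1 (274 ± 15.6), Cct4 (244 ± 7.45) and Cct6a (199.8 ± 5.66). Neighbours overlapped there for Cct5 and Cct8, Cct3 and Cct2, and Cct2 and Tcp1. Cct3 thus left the upper group and Cct6a moved from above Cct4 to below it, with no overlap between Cct4 and Cct6a in either group. The ratio of the highest to the lowest level was 1.71 in WT and 2.03 in R783H. The choice of transcript sets the scale of each gene, so the order between genes is less certain than the change within a gene.

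Several of the genes start head to head with a neighbour, and without stranded counting reads from overlapping exons cannot be assigned with certainty; the use of strand is not given in the sources used here. The neighbours were added for their position and stand outside the naming rule. An exon of Psph, a serine synthesis phosphatase, shares 452 nt with Cct6a on the opposite strand, and Psph stood at 43.0 ± 1.63 CPM in R783H against 42.7 ± 1.07 CPM in WT, not called, while Cct6a fell. Psph stood at 8.76% of the Cct6a mean CPM in R783H against 5.40% in WT. Usp16, a deubiquitinase, shares 192 nt with Cct8 and was not called (log2 fold change -0.15, SE 0.08, adjusted p 0.127), but was with the length and GC offset (-0.21) and without R783H A (-0.22). Pradc1 shares 214 nt with Cct7 and fell by 0.25 on the log2 scale (SE 0.07, adjusted p 0.00912), but was not called with the length and GC offset (adjusted p 0.102) or without WT B. Cct7 also matches the processed pseudogene Gm5380 over 209 nt at 97.1% identity. Mrpl18, a mitochondrial ribosomal protein gene, shares 17 nt with Tcp1 and fell by 0.62 (SE 0.05, adjusted p 7.59e-07). Acat3 shares 571 nt with Tcp1 on the opposite strand and stood at 7.30 ± 0.737 CPM in R783H against 9.23 ± 0.755 CPM in WT, a called decrease (adjusted p 0.0139) that was lost without WT B (adjusted p 0.0755). Acat2, whose transcript matches Tcp1 over 445 nt at 98.7% identity, fell from 142 to 97.1 CPM. No such overlap was found for Cct2, Cct3, Cct4 or Cct5. The part of shared reads in the Cct values was not tested.

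Of the 2 further paralogs, Cct6b and Cct8l1, 0 were called lower by edgeR, DESeq2 or limma, and 0 had an unadjusted p under 0.05 in that direction. Cct6b, the testis form of the zeta subunit, stood at 1.20, 1.44 and 0.878 CPM in R783H and at 0.693, 0.734 and 0.891 CPM in WT, and was not called (log2 fold change 0.60, SE 0.26, adjusted p 0.0614 by edgeR's quasi-likelihood test), though 4 of its alternatives called it higher. Cct8l1 was at most 1.01 CPM in any library and passed the low-count filter through the R783H libraries, the group where it was higher. It rose by 1.33 on the log2 scale (SE 0.40, adjusted p 0.0135 by edgeR's quasi-likelihood test). That call was lost without R783H C (adjusted p 0.0593) or without WT A (adjusted p 0.0583), and it is not read as a result. The chaperonin-like Bardet-Biedl genes, whose products act with TRiC in assembling the BBSome, were mixed. Mkks fell from 40.4 ± 0.107 to 33.0 ± 1.56 CPM (log2 fold change -0.29, SE 0.06, adjusted p 8.21e-04), while Bbs10 (0.24, SE 0.12) and Bbs12 (0.13, SE 0.15) were not called and averaged under 6 CPM.

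Prefoldin, a hexamer that hands unfolded actin and tubulin to TRiC, had 4 of 6 subunit genes called lower and 0 called higher, with a median log2 fold change of -0.37. The shares over all tested genes were 30.9% lower and 33.5% higher. No higher call came from DESeq2 or limma either, and 0 were higher at an unadjusted p under 0.05. Pfdn6 stood at 59.6, 61.2 and 63.2 CPM in R783H and at 101.9, 100.1 and 103.3 CPM in WT. It fell by 0.73 on the log2 scale (SE 0.05, adjusted p 2.78e-07). Pfdn2 fell by 0.54 (SE 0.05), Pfdn4 by 0.48 (SE 0.06) and Vbp1, an alpha-type prefoldin subunit, by 0.27 (SE 0.06). Pfdn5 (-0.02, SE 0.06) and Pfdn1 (0.08, SE 0.04) were not called, but Pfdn1 was called higher with library-size scaling (0.17) and with the length and GC offset (0.18), and Pfdn5 changed sign with both. Among the phosducin-like cochaperones 3 of 4 were called lower and 0 higher, with a median of -0.21. Pdcl3 fell by 0.42 (SE 0.06), Txndc9 by 0.21 (SE 0.05) and Pdcl, a factor for folding of G protein beta subunits, by 0.21 (SE 0.06), the last not called with library-size scaling (-0.13, adjusted p 0.0852). Pdcl2, at 4.30 and 3.67 CPM, was not called.

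Clients of TRiC were measured as mRNA as well, against a background of 30.9% of all tested genes called lower and 33.5% called higher. Of 12 actin and tubulin genes 10 were called lower and 0 higher, with a median of -0.55; DESeq2 and limma also called 0 higher, and 0 were higher at an unadjusted p under 0.05, in this list as in the phosducin-like one. Actb, the main cytoplasmic actin, stood at 2060, 2319 and 2053 CPM in R783H and at 3118, 3077 and 3352 CPM in WT (log2 fold change -0.57, SE 0.06). Actg1 (-0.12, SE 0.07) was not called and its groups overlapped, though it was called without R783H B (-0.19) and without WT C (-0.19). The largest decreases were Tubb4b (-1.06, SE 0.06), Tuba1a (-1.03, SE 0.06), Tuba1b (-1.003, SE 0.14) and Tuba1c (-0.88, SE 0.07). Tuba1b averaged only 7.19 CPM in R783H, against 17.5, 11.2 and 14.8 CPM in WT A, B and C. Tubb5 changed by -0.19 (SE 0.05) and was not called with library-size scaling (-0.11). Tubulin genes are near-identical in coding sequence, so reads may be split among them. Of 6 tubulin cofactors 1 was lower and 1 higher: Tbcb fell by 0.55 (SE 0.06) and Tbca rose by 0.16 (SE 0.04).

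Of 18 WD40 and other reported client genes 11 were lower and 2 higher, with a median of -0.21. Over all tested genes 30.9% were called lower and 33.5% higher. Over the 182 abundant genes the shares were 57.7% and 23.1%, with a median of -0.23, but the genes of this list were less abundant. Strap, the highest of them, reached 575.2 CPM in a WT library, against a mean of 616.3 CPM for the lowest Cct gene. No background matched to this list was taken, and its count is not read as a result about clients. Cdc20, an activator of the anaphase-promoting complex that needs TRiC to fold, stood at 145, 163 and 148 CPM in R783H and at 405, 389 and 376 CPM in WT. Its log2 fold change was -1.36 (SE 0.05, adjusted p 1.99e-08 by edgeR's quasi-likelihood test), and the other activator, Fzr1, fell by 0.59 (SE 0.06). The mitotic kinase Plk1 changed by -0.87 (SE 0.06). Gnb4, a G protein beta subunit, rose by 0.82 (SE 0.09), from 9.14 to 16.1 CPM.

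Most genes on both lists of other chaperones were called lower, against 30.9% of all tested genes called lower and 33.5% called higher. Of 22 cytosolic heat shock and co-chaperone genes 18 were called lower and 1 higher, with a median of -0.47, and of 6 mitochondrial chaperone genes 5 were lower and 1 higher, with a median of -0.31. Hspd1, the mitochondrial chaperonin and a distant relative of TRiC, stood at 600.2, 554 and 619 CPM in R783H and at 959, 950.2 and 973 CPM in WT (log2 fold change -0.70, SE 0.05), and its partner Hspe1 fell by 0.40 (SE 0.04). Grpel1 fell by 0.58 (SE 0.05), and Trap1 rose by 0.24 (SE 0.05). In the cytosol the inducible Hspa1b changed by -1.07 (SE 0.09) at 14.2 CPM or less, Hsph1 by -0.76 (SE 0.04), Dnaja1 by -0.65 (SE 0.05) and Ahsa1 by -0.64 (SE 0.05). The constitutive Hspa8 (-0.10, SE 0.06) was not called, but was without R783H B (-0.19) and with the length and GC offset (-0.11). Hsp90ab1, the most abundant gene of the list, fell from 8603 ± 167 to 7307 ± 304 CPM (log2 fold change -0.24, SE 0.04).

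**Figure D4:**
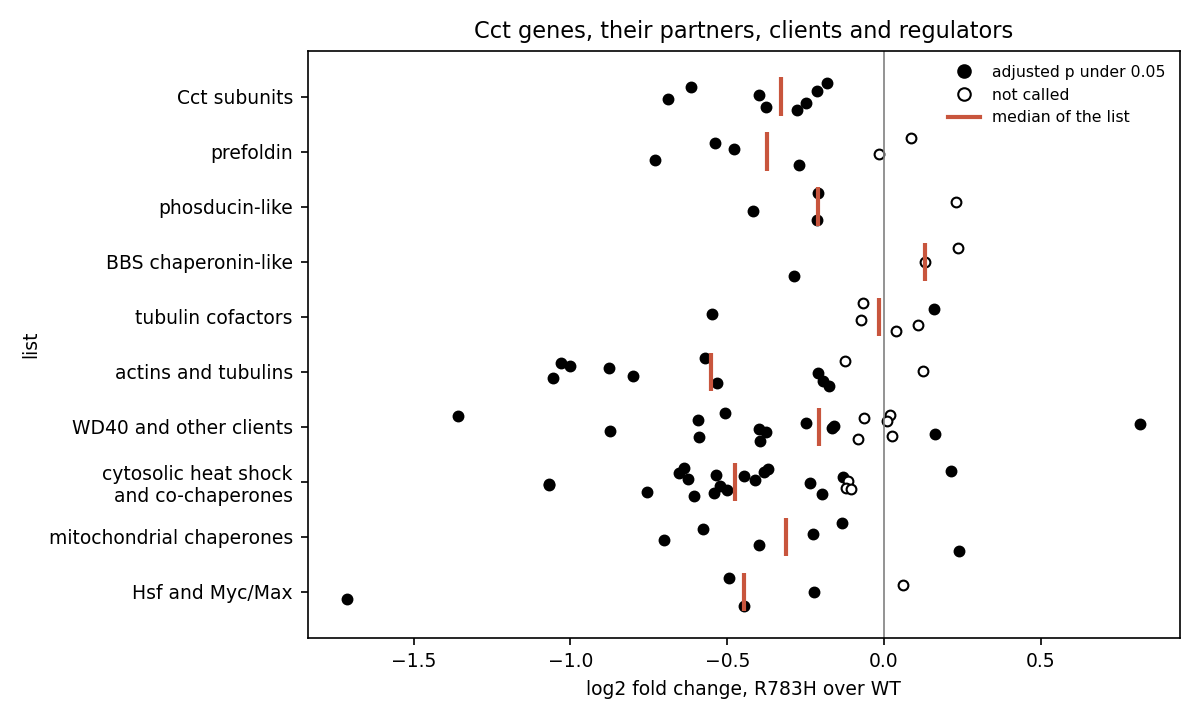
Log2 fold change of R783H over WT for each tested gene (1 point each) of the Cct list and 9 related lists, filled where the adjusted p was under 0.05; red lines are list medians. The 8 Cct points are all filled and left of 0, and 4 of the other lists have lower medians: actins and tubulins at -0.55, cytosolic heat shock genes at -0.47, transcription factors at -0.45 and prefoldin at -0.37.

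Transcription factors that are known to act on chaperone genes were measured beside them. Hsf1, the heat shock factor, stood at 49.9, 49.4 and 47.5 CPM in R783H and at 73.9, 66.7 and 66.5 CPM in WT, with a log2 fold change of -0.50 (SE 0.06). Hsf2 was not called (0.06, SE 0.05), but was called higher with library-size scaling (0.14). Myc fell from 65.4 ± 2.33 to 19.96 ± 1.11 CPM, with a log2 fold change of -1.71 (SE 0.06), Mycn fell by 0.45 (SE 0.05) and their partner Max by 0.22 (SE 0.04). The part of these factors in the Cct values was not tested.

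The mean profile of the 8 Cct genes over the 6 libraries was compared with that of 4635 other genes averaging at least 50 CPM. The closest were Psmd2, a proteasome subunit gene, Vcp, an ATPase that unfolds ubiquitinated proteins, Xrcc6, the Ku70 DNA repair gene, Tuba4a, an alpha tubulin, and Fbxl19, each with Pearson r of at least 0.9995 over 6 libraries. Vcp, for example, stood at 219, 244 and 219 CPM in R783H and at 315, 312 and 305 CPM in WT, with R783H B again above A and C. With 2 groups and 6 libraries a high r is common: 519 of the 4635 genes reached 0.99, and the points share libraries and scaling, so the likeness is a description. The Cct genes themselves had r from 0.970 for Cct7 to 0.9996 for Cct4 with the mean profile they enter.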

How the data were processed

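The authors deposited a table of counts per Entrez gene, with 1 column per library, and per the file headers each column came from its own alignment file. The submitters' processing notes name CASAVA 1.4, HISAT2, SAMtools and the build mm10; the counting tool, annotation and use of strand are not given in the sources used here. Libraries were assigned to groups from their titles. Genes were kept with edgeR's filterByExpr (minimum count 10, minimum total 15), scaled with TMM factors and tested with edgeR 4.0.16's quasi-likelihood test in R 4.3.3, group as the single term, with Benjamini-Hochberg adjustment over 14199 genes. The steps were run on simulated counts in which far fewer genes changed than were called here, so scaling under widespread change was not checked. A log2 fold change is R783H over WT, and the SE was taken from the fold change and the F statistic. A floor of 3 counts is 0.0998 to 0.149 CPM, and covers counting error only. Alternatives used DESeq2 1.42.0, limma 3.58.1 (voom), other scaling and filters, an offset for transcript length and GC content (values for 92% of tested genes), a replicate term, and each library left out. Symbols and promoters came from RefSeq (GRCm38.p6; 25275 identifiers matched), transcripts from GENCODE M21; copies were sought with BLAST 2.17.0 (at least 95% identity over 100 nt).

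The 8 members and the lists were chosen with earlier results of these data known. Named are all members of the Cct, paralog, prefoldin, phosducin-like, Bardet-Biedl and transcription factor lists, up to 4 called genes with the largest change in each other list (averaging at least 10 CPM in the higher group), the preset genes Actb, Actg1, Tuba1b, Tubb5, Hspa8, Hsp90ab1, Hspd1, Hspe1 and Trim71, and the 5 genes with the profile most like the Cct mean.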

Additional observations from a re-analysis of the deposited data

How the results depend on the processing

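All 8 Cct genes were called lower under each of the 15 alternatives. Their median log2 fold change of -0.33 was -0.25 with library-size scaling and ran from -0.39 to -0.32 with 1 library left out, lowest without R783H B. No share difference changed sign with counts per kilobase or with a library left out. Over all tested genes, leaving out a library gave 3906 to 4913 called lower and 4161 to 4969 higher.

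Small counts moved. With library-size scaling, calls higher were 2 among the paralogs, 1 of prefoldin, 1 of the Bardet-Biedl genes, 2 of the tubulin cofactors, 1 of the actins and tubulins, 4 of the WD40 and other clients and 1 of the transcription factors. With the length and GC offset they were 2 (paralogs), 2 (prefoldin), 2 (tubulin cofactors), 1 (actins and tubulins) and 1 (WD40 and other clients). With a library left out, calls higher ran from 0 to 1 for the paralogs, from 0 to 1 for the Bardet-Biedl genes (1 without WT C) and from 0 to 1 for the heat shock list (0 without WT C). Calls lower ran from 1 to 2 for the tubulin cofactors (2 without R783H B). They ran from 9 to 11 for actins and tubulins, 9 to 13 for WD40 and other clients, 17 to 19 for heat shock genes and 4 to 5 for mitochondrial chaperones. Library-size scaling gave 8, 9, 17 and 4 for these last lists. The causes were not tested.

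Signs turned for genes near 0: Pfdn5 (0.064 with library-size scaling, 0.11 with the length and GC offset, -0.10 to 0.0044 with a library left out), Hsf2 (-0.0017 with the offset), Trim71 (-0.27 with the offset, adjusted p 0.00104, and -0.022 to 0.13 with a library left out), Bbs12 (-0.0025 to 0.24) and Psph (-0.011 with RLE factors and with DESeq2, -0.024 to 0.031 with a library left out).

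No pairing of libraries by the letters A, B and C was seen: correlations of same-letter deviations were -0.07, 0.00682 and 0.0851, and not every library correlated best with its own letter. The deviations were taken from the mean of each group of 3 libraries, which constrains these correlations, so they cannot exclude pairing. With the replicate block 8 Cct genes were called lower (median -0.33), and 4421 genes were lower and 4839 higher. At 13250 or more counts per gene and library, counting error is small for the Cct values, whereas Cct6b, Cct8l1, Bbs10, Bbs12 and Pdcl2 rest on few counts. Depth was higher in every R783H library, and TMM factors were 1.021 to 1.034 in R783H against 0.9672 to 0.9747 in WT. A part linked to depth or scaling cannot be told apart from group.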

Other observations

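Small nucleolar RNAs encoded inside Cct genes were also listed. Snora20, inside the span of Tcp1, had counts of 0, 0 and 1 in the R783H libraries A to C against 9, 18 and 12 in the WT libraries. It passed the low-count filter through the WT libraries alone. Its call as lower (adjusted p 5.79e-05 by edgeR's quasi-likelihood test) is therefore not read as a result, and no fold is given at such counts. Snora15, inside Cct6a, had counts of 7, 4 and 4 against 7, 6 and 8 and did not pass the filter. Such RNAs mostly lack a poly(A) tail, so their counts in oligo(dT)-selected RNA need not follow their level in the cell.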
